A study of Caenorhabditis elegans with 6 samples.

Results

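The caenacins (cnc genes) and the fungus-induced peptides (fip genes and the related fipr genes) of the nematode Caenorhabditis elegans were examined in embryos that lack the microRNAs mir-35 to mir-41. The genes described are cnc-4, cnc-8, fip-2, fip-5, fipr-2, fipr-21, fipr-23 and fipr-26, found by the gene symbol column of the deposited table. These 8 genes have 10 features (probe sets), out of 29 features for all cnc, fip and fipr genes and 22548 features tested. They were selected on their mutant to wild type differences in log2 intensity on these same arrays, being higher in the mutant, so those differences are given as a description, and nothing is drawn from a test of them.

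The data are 6 Affymetrix arrays of total RNA from whole embryos of mixed stage, at 20 degrees Celsius. Of these, 3 carry the mir-35-41(nDf50) deletion, from strain VT2935 without nEx1187, which by nomenclature is an extrachromosomal array. The other 3 are wild type N2. A free-text line of the labels gives another stage, which differs between mutant replicates 1 and 2 and the other 4 arrays, and it was not used. Nothing in the labels ties replicates to separate cultures, so their spread may be in part technical.

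Caenacins and fungus-induced peptides are short, mostly glycine-rich secreted peptides of the innate immune system. Several of them, like the related nlp-29 peptides, are known from the epidermis of larvae and adults, where infection by the fungus Drechmeria coniospora induces them. In the epidermis nlp-29 is switched on through a p38 MAP kinase cascade, and the caenacin cnc-2 through the TGF-beta ligand DBL-1. The deleted microRNAs belong to the mir-35 family, which embryos express early and need as a group to develop, and its members pair with mRNAs through the same seed.

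The first principal component did not part the arrays by genotype. Wild type replicate 3 stood away from the others on it (78.6, against -36.8 to -14.7 on mutant arrays and -22.7 and 28.5 on the other wild type arrays), and mutant replicates 2 and 3 were close to identical (r = 0.998 over all features). The log2 intensity SD was smaller in the mutant for 77.9% of all features and for 8 of the 10 features described here. Values below are the authors' normalized intensities on a linear scale unless log2 is stated, and levels of different features are not compared with each other. In whole embryos, fewer cells of a type and less RNA per cell cannot be told apart.

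All 10 features were higher on every mutant array than on every wild type array. Over all features 6.16% had this pattern, and since the genes were picked for it nothing is read from their count. Log2 differences (mutant minus wild type) of the 10 features had a median of 0.91 and lay between 0.70 and 2.51, beside a median of -0.10 over all features. At least 2-fold differences were seen on 4 features, those of cnc-4, fipr-2, fipr-26 and cnc-8, where 3.06% of all features were at least 2-fold higher. In the limma fit over all 22548 features 1 of the 10, fipr-2, was past an adjusted p of 0.05, a count given only beside the background and from which nothing is read: 0.124% of all features passed in the higher direction and 0.129% in either.

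Among the caenacins, cnc-4 belongs to a cluster on chromosome V and is annotated in the table with responses to wounding and to fungus. Its feature read 2065, 1879 and 1996 on mutant replicates 1, 2 and 3, against 588, 179 and 397 on wild type replicates 1, 2 and 3. The mutant arrays were nearly level (1.1-fold from lowest to highest), and the wild type arrays spread over 3.29-fold. In log2 intensity it averaged 10.95 ± 0.07 in the mutant and 8.44 ± 0.87 in wild type (SD, n = 3 each), a difference of 2.51 ± 0.39 (SE) or 5.7-fold. The lowest mutant array lay 3.19-fold above the highest wild type array, and the size of the difference depends on which wild type array is taken as the base.

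The other caenacin described, cnc-8, lies on the X chromosome away from that cluster. It read 549, 542 and 574 on the mutant arrays, against 363, 231 and 243 on the wild type arrays. Wild type replicate 1 was the closest to the mutant, with a gap of 1.49-fold. Its log2 mean was 9.12 ± 0.04 in the mutant and 8.09 ± 0.36 in wild type (SD, n = 3 each), a difference of 1.02 ± 0.21 (SE) or 2.03-fold.

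Next to cnc-8 in gene order are the fungus-induced gene fip-5 and its relative fipr-21, with no other protein-coding gene between the 3. The feature of fipr-21 read 816, 811 and 845 in the mutant, against 554, 496 and 309 in wild type, a log2 difference of 0.91 ± 0.24 (SE) or 1.87-fold. That of fip-5 read 247, 263 and 302 in the mutant, against 149, 123 and 211 in wild type, a log2 difference of 0.78 ± 0.23 (SE) or 1.72-fold. The groups stayed apart for both, by 1.46-fold for fipr-21 and by 1.17-fold for fip-5, but the wild type arrays were ordered differently. Wild type replicate 3 was the lowest for fipr-21 and the highest for fip-5.

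The fip-2 gene, on chromosome V, has a pair of features of the x_at kind, which Affymetrix marks as open to cross-hybridization. One read 171, 175 and 189 in the mutant, against 130, 111 and 91.5 in wild type, a log2 difference of 0.70 ± 0.18 (SE). The other had log2 intensities of 6.60, 6.89 and 6.87 in the mutant, against 6.31, 6.31 and 5.54 in wild type, a log2 difference of 0.74 ± 0.24 (SE). Both features put wild type replicate 3 lowest and gave folds of 1.62 and 1.66.

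Among the fipr genes, fipr-2 showed the clearest separation. It read 195, 274 and 206 on the mutant arrays, against 49.1, 41.9 and 44.7 on the wild type arrays. Its wild type arrays were the tightest of the 10 features (1.17-fold from lowest to highest), and the lowest mutant array was 3.96-fold above the highest wild type array. The log2 mean was 7.79 ± 0.26 in the mutant and 5.50 ± 0.12 in wild type (SD, n = 3 each), a difference of 2.30 ± 0.19 (SE) or 4.92-fold. In fits with 1 array fewer the difference was 2.15 to 2.39. It stayed past the threshold without wild type replicate 1 or 2 and fell short of it without wild type replicate 3 or any 1 of the mutant arrays.

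On chromosome I, fipr-26 has 1 feature of the s_at kind, which can match several transcripts. It read 279, 211 and 182 in the mutant, against 140, 66.2 and 66.5 in wild type, a log2 difference of 1.37 ± 0.33 (SE) or 2.59-fold. The separation rests on a gap of 1.3-fold between mutant replicate 3 and wild type replicate 1.

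Also on chromosome I, both features that name fipr-23 are annotated to fipr-22 as well and cannot tell these neighbours apart. One read 158, 113 and 100 in the mutant, against 89.8, 46 and 64.4 in wild type, a log2 difference of 0.92 ± 0.29 (SE). The other read 56.5, 39.4 and 35.5 in the mutant, against 33.6, 21 and 24.6 in wild type, a log2 difference of 0.73 ± 0.25 (SE). Here the groups nearly touched, with gaps of 1.12-fold and 1.05-fold between mutant replicate 3 and wild type replicate 1.

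The wild type arrays ranked in much the same way on most of these features, and the mutant arrays did not. Wild type replicate 1 was the highest wild type array on 9 of the 10 features (tied with wild type replicate 2 on 1 feature of fip-2), the exception being fip-5. Wild type replicate 2 was the lowest on 7 and wild type replicate 3 on the other 3, the fip-2 pair and fipr-21. In the mutant, replicate 1 was the highest on 4 features, those of cnc-4, fipr-26 and the fipr-22 and fipr-23 pair, replicate 2 on 2 and replicate 3 on 4. Averaged over the 8 genes, the deviation from each gene's own log2 mean was 0.69, 0.65 and 0.61 on mutant replicates 1, 2 and 3, against -0.28, -0.91 and -0.76 on wild type replicates 1, 2 and 3.

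**Figure D1:**
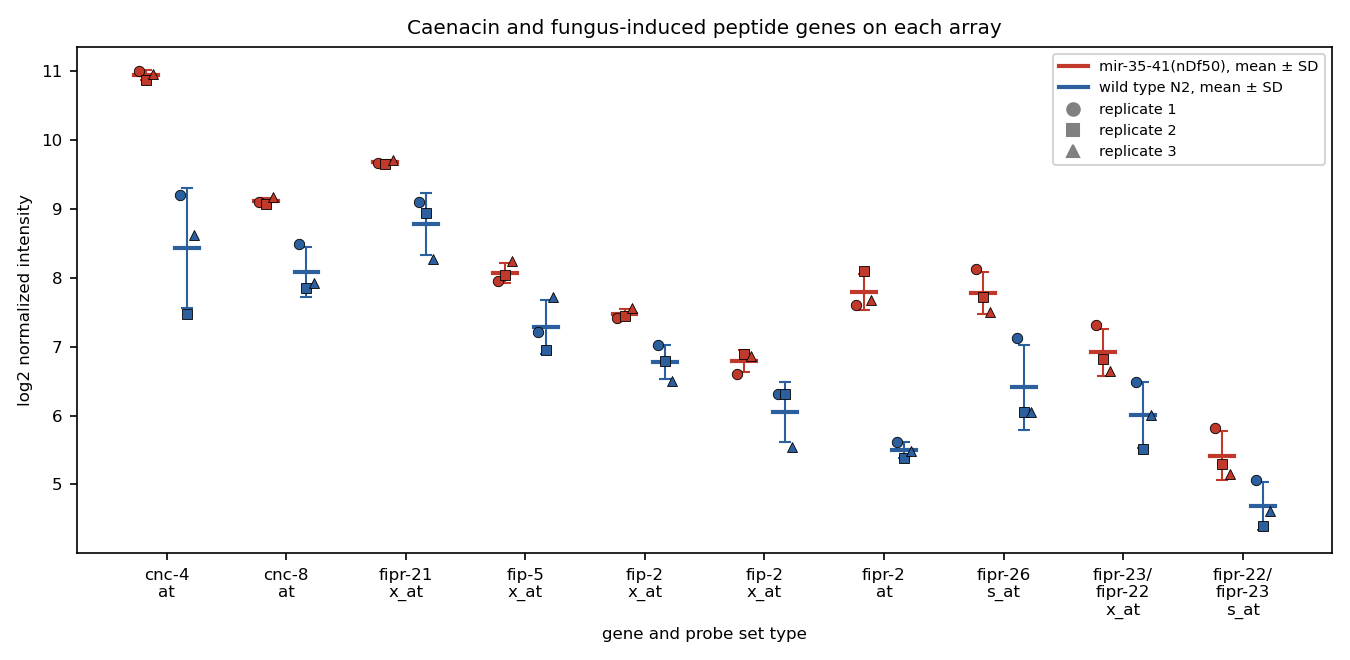
Log2 normalized intensity (vertical axis) of the 10 features of the 8 genes, with mutant arrays in red to the left of wild type arrays in blue; bars are the mean ± SD of 3 arrays and symbols mark the replicates. Every mutant point lies above every wild type point of the same feature, with the widest gaps for fipr-2 (3.96-fold) and cnc-4 (3.19-fold).

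Over the rest of the family the differences were smaller and lay on both sides of 0. Of 47 cnc, fip and fipr genes in RefSeq, 29 are named by a feature here. The 19 features of the other genes had a median log2 difference of -0.13, with 8 above 0 and 11 below. None of them passed the threshold in limma (0 of 19, with 2 at an unadjusted p under 0.05), and the groups did not overlap on 4 that were higher and 2 that were lower. Over all features 6.16% did not overlap with the mutant higher and 9.37% with the mutant lower. As these 19 are what remained after the 8 genes were taken out, their counts too are a description. Most of the 19 were also dim, so a difference on them could have been missed. With features of mean log2 intensity below the median feature removed, 9 of the 29 family features remained. Of these, 7 belonged to the 8 genes, and all 9 had a positive difference. The mean covers all 6 arrays, so a feature could pass this filter through its mutant values. As 7 of the 9 were also chosen for being higher, nothing is read from this count.

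The largest differences among these other genes belonged to cnc-7, a caenacin gene at another place on chromosome V. Its features both differed by 0.56 (SE 0.18 and 0.19; limma adjusted p = 0.412 and 0.439), just under the 0.70 of the lowest feature described above. One read 47.3, 37.2 and 45.8 in the mutant, against 25.8, 29.4 and 32.9 in wild type, with no overlap. The next was fipr-17 on chromosome III at 0.25 ± 0.16 (adjusted p = 0.582).

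At the other end stood the feature shared by fipr-6, fipr-7, fipr-8 and fipr-9, at -0.45 ± 0.44 (adjusted p = 0.663). It read 48.9, 40.8 and 51.1 in the mutant, against 45.5, 40.7 and 139 in wild type, so its sign comes from wild type replicate 3 alone. Above it were fip-3 at -0.37 ± 0.21 (adjusted p = 0.556) and a feature shared by fip-3 and fipr-16 at -0.34 ± 0.24 (adjusted p = 0.603).

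By kind of gene, with a shared feature counted under each, the 10 cnc features had a median log2 difference of 0.22, the 7 fip features one of 0.02 and the 13 fipr features one of -0.17. Over all 29 features the median was 0.22, with 14 higher and 2 lower without overlap and 1 past the threshold. These counts and medians include the 10 features chosen for being higher, so nothing is read from them. Over all features 6.16% were higher and 9.37% lower without overlap, and 0.124% passed in the higher direction. Without the 8 listed genes, 6 of 8 cnc features, 1 of 4 fip features and 1 of 8 fipr features were above 0.

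**Figure D2:**
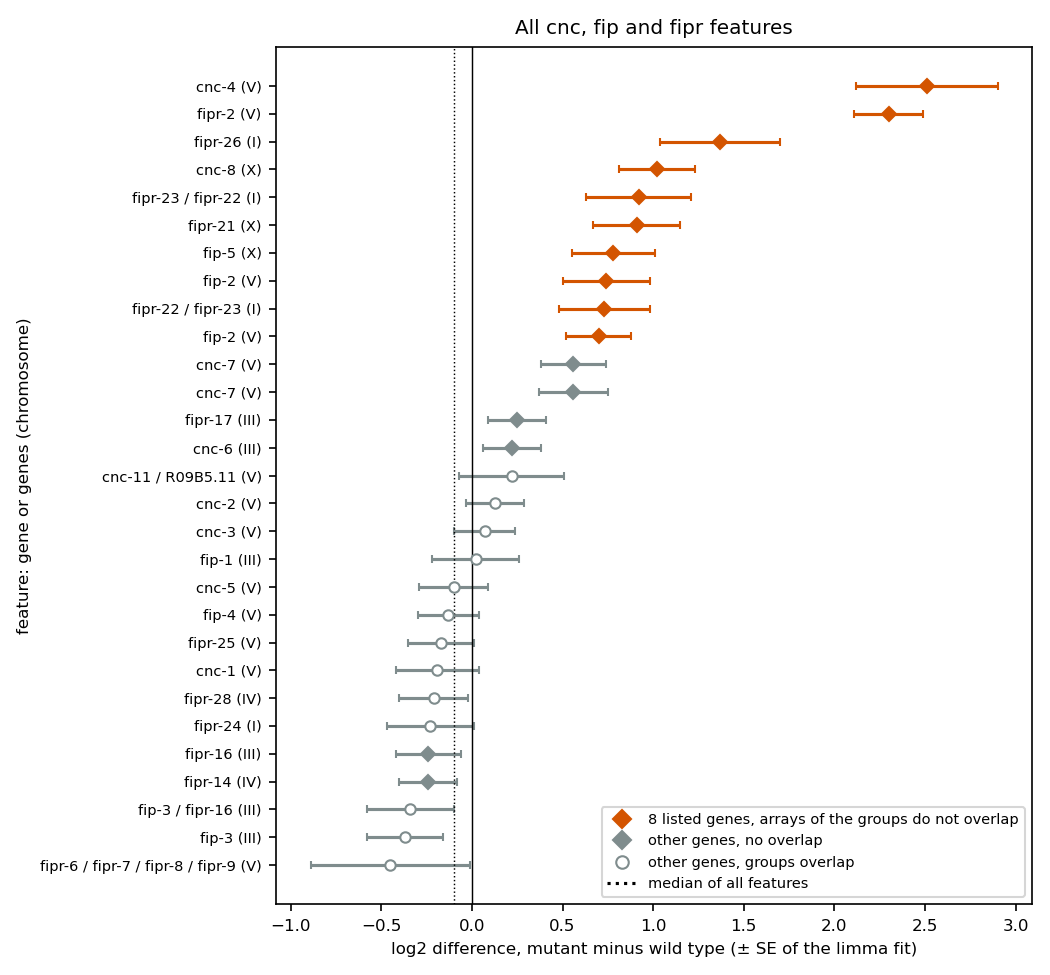
Log2 difference, mutant minus wild type, with the SE of the limma fit (horizontal axis) for all 29 cnc, fip and fipr features, by gene and chromosome; diamonds mark features whose groups do not overlap and the dotted line is the median of all features at -0.10. The 10 features of the 8 genes, in orange, span 0.70 to 2.51, and the 19 others span -0.45 to 0.56.

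Many genes of the family lie in small clusters, and the neighbours of the 8 genes, picked by position, were read for comparison. None of the 47 genes is on chromosome II, which carries the deleted microRNAs. Counted by protein-coding gene order in RefSeq, cnc-4 stands between cnc-5 and cnc-3, with cnc-1, cnc-11 and cnc-2 close by. The direct neighbours differed by -0.10 ± 0.19 for cnc-5 and by 0.07 ± 0.17 for cnc-3 (log2 difference ± SE). The cnc-3 feature was far from dim, at 639, 769 and 757 in the mutant, against 733, 730 and 607 in wild type. Among the others cnc-1 differed by -0.19 ± 0.23, cnc-2 by 0.13 ± 0.16, and a feature shared by cnc-11 and its neighbour R09B5.11 by 0.22 ± 0.29. Adjusted p for these 5 features lay between 0.707 and 0.855 by limma. The features of cnc-1, cnc-2 and cnc-5 were dim, between 23.1 and 46.4 on all arrays.

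On the X chromosome fip-5, fipr-21 and cnc-8 stand side by side, and all 3 were among the genes chosen, at 0.78, 0.91 and 1.02. The genes on either side were npr-6, a neuropeptide receptor gene, at 0.22 ± 0.16 (adjusted p = 0.608) and F41E7.6 at -0.14 ± 0.20 (adjusted p = 0.743).

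Near fipr-22 and fipr-23 on chromosome I, fipr-24 differed by -0.23 ± 0.24 (adjusted p = 0.68). It read 50.6, 50.8 and 46.9 in the mutant, against 50.2, 46.1 and 83.4 in wild type, with overlap. Further out in this region, kal-1, the anosmin gene, was at -0.69 ± 0.17 (adjusted p = 0.261) with no overlap.

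Within 4 genes on each side of the 8 genes, 27 measured genes outside the family had 32 features. By limma 0 passed the threshold in either direction (5 had an unadjusted p under 0.05). Of the 32 features 0 were higher without overlap (6.16% of all features) and 4 were lower without overlap (9.37% of all features). The median log2 difference of the 32 was -0.03. The highest was F23H12.5, near fipr-2, at 1.59 ± 0.68 (adjusted p = 0.489), with overlap between the groups. The lowest was F23H12.7, directly beside fipr-2, at -0.81 ± 0.22 (adjusted p = 0.304). Those lower without overlap included features of best-8, near fipr-23, at -0.74 and -0.80, while another feature of best-8, at -0.10, overlapped. F23H12.5, F23H12.7, best-8, kal-1 and fipr-24 were named after their values were seen.

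**Figure D3:**
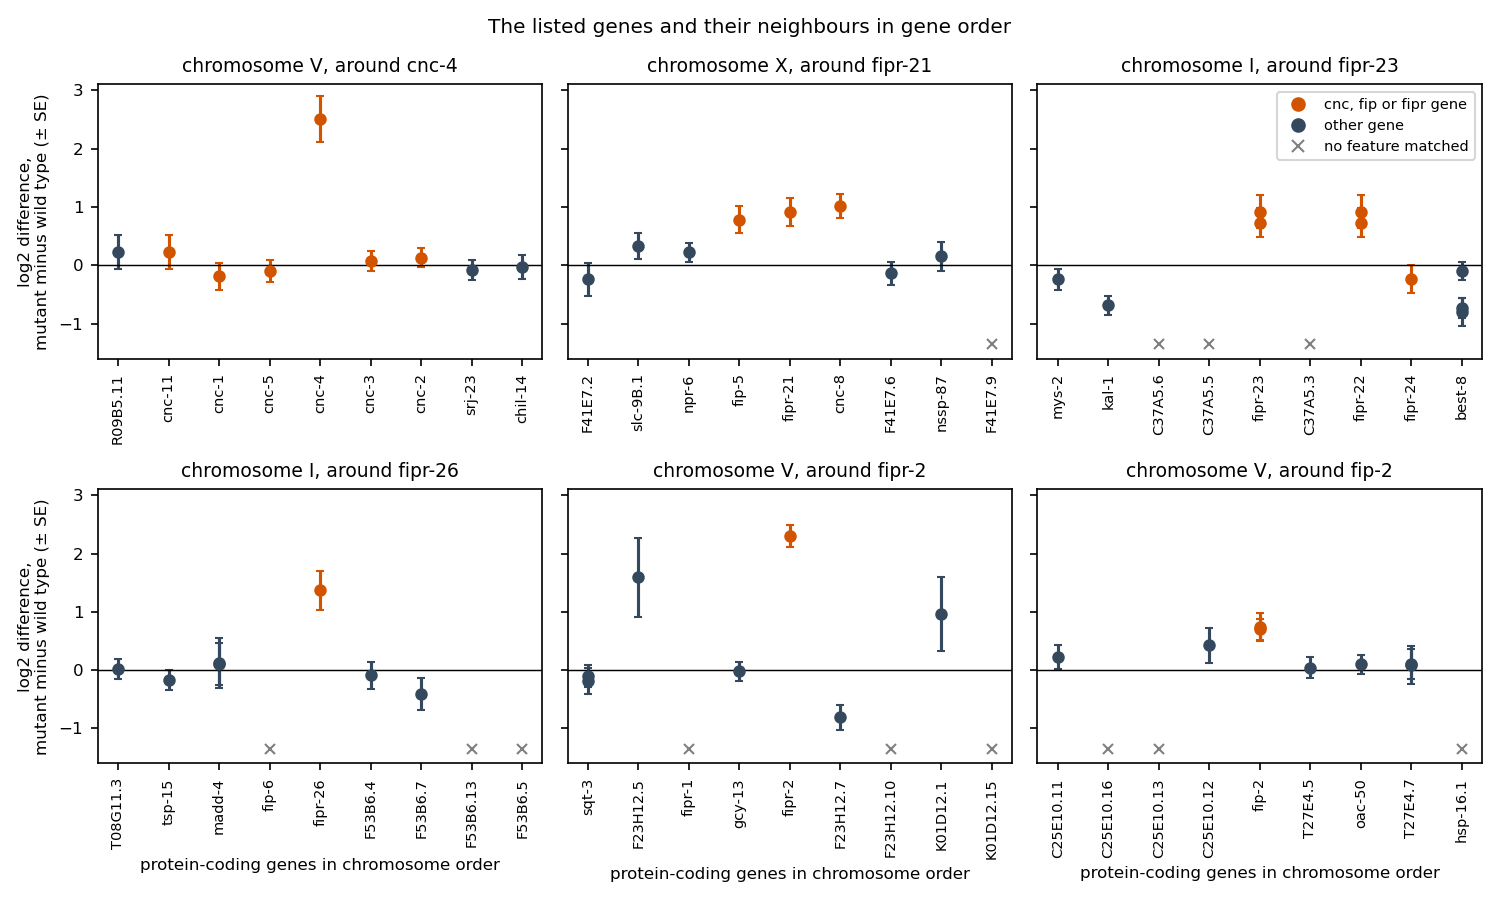
Log2 difference, mutant minus wild type, with the SE of the limma fit (vertical axis) for the listed genes and the 4 protein-coding genes on each side in chromosome order, cnc, fip and fipr genes in orange and others in dark blue; a cross marks a gene with no matched feature, R09B5.11 and cnc-11 share 1 feature, and fipr-22 and fipr-23 share both of theirs. Raised orange points are seen at cnc-4, fipr-26, fipr-2 and fip-2, at fipr-22 and fipr-23 (0.92 and 0.73 on their shared features) and in a row of 3 on the X chromosome. The family genes fipr-1, near fipr-2, and fip-6, beside fipr-26, have no matched feature, and fip-2 has no family gene in its window. Dark blue points near fipr-2 were raised as well, the highest being F23H12.5 at 1.59 with overlap.

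The nlp-29 group, epidermal antimicrobial peptide genes related to the caenacins, is not among the 8 genes. Its list was still chosen with earlier results of these data known, so its counts are a description. Of 8 listed genes 7 were measured and all 7 had a positive log2 difference, with a median of 0.96. By limma 2 rose past the threshold, and 5 were higher without overlap. Over all features 0.124% passed in the higher direction and 6.16% were higher without overlap. Gene nlp-29 read 921, 1019 and 1093 in the mutant, against 294, 226 and 136 in wild type, 4.84-fold higher (adjusted p = 0.0442). Gene nlp-30 read 540, 694 and 773 in the mutant, against 236, 243 and 223 in wild type, 2.83-fold higher (adjusted p = 0.0442). Both features are of the x_at kind. Neither call held without wild type replicate 3 or any 1 of the mutant arrays, where adjusted p was 0.0906 to 0.259 for nlp-29 and 0.109 to 0.31 for nlp-30, and that of nlp-30 was 0.096 without wild type replicate 1. The related nlp-27 and nlp-31 differed by 0.90 ± 0.19 and 0.86 ± 0.18 (log2 ± SE; adjusted p = 0.193 and 0.194). The median deviation of this group was -0.30, -0.29 and -0.82 on wild type replicates 1, 2 and 3, while all 3 mutant arrays lay between 0.46 and 0.77.

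Genes known to act upstream of nlp-29 in the adult epidermis were read as a list. Of 16 genes 15 were measured, 0 passed the threshold by limma (0 also at an unadjusted p under 0.05), 0 did not overlap in either direction, and the median log2 difference was 0.14, with 8 above 0. The p38 kinase gene pmk-1 was at 403, 388 and 467 in the mutant, against 210, 505 and 159 in wild type, a difference of 0.70 ± 0.40 (adjusted p = 0.56). The epidermal GATA factor gene elt-3 differed by -0.31 ± 0.18 (adjusted p = 0.564), the Tribbles-like kinase gene nipi-3 by 0.33 ± 0.19 (adjusted p = 0.568) and the G protein alpha gene gpa-12 by 0.58 ± 0.36 (adjusted p = 0.582). All of these are mRNA levels and do not measure the activity of a kinase cascade.

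The TGF-beta list holds genes of the DBL-1 pathway as a whole, and whether each acts on caenacins was not tested. It had 10 measured genes, a median of 0.43, 1 gene past the threshold and 2 higher without overlap. Over all features 0.124% passed in the higher direction and 6.16% were higher without overlap. The gene past the threshold was lon-1, which encodes a secreted protein that limits body size downstream of DBL-1. It read 649, 620 and 555 in the mutant, against 167, 93.4 and 97.8 in wild type, 5.27-fold higher (limma adjusted p = 0.0313). Without wild type replicate 3 or any 1 of the mutant arrays its adjusted p was 0.141 to 0.216, with log2 differences of 2.28 to 2.46. The SMAD genes sma-4 and sma-3 differed by 0.65 ± 0.24 and 0.53 ± 0.22 (adjusted p = 0.457 and 0.481) and the SMAD cofactor gene sma-9 by 0.59 ± 0.30 (adjusted p = 0.539). Wild type replicate 3 had the lowest median deviation of this list at -0.45, and the other wild type arrays, at 0.05 and 0.09, lay beside mutant replicate 1 at 0.06. As mRNA levels, these values, that of lon-1 included, do not measure the strength or direction of DBL-1 signalling.

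Loss of furrow collagens or of certain osmotic regulators is reported to raise epidermal antimicrobial peptides in larvae and adults. Of the 9 genes of this list, all measured, 0 passed the threshold by limma (2 had an unadjusted p under 0.05), and the median was 0.10. Without overlap 3 were higher, beside 6.16% of all features. The collagen genes dpy-9 and dpy-8 were higher without overlap, 3.09-fold and 2.54-fold (adjusted p = 0.0725 and 0.194). The osmotic regulator gene osm-11 also had no overlap, at 0.29 ± 0.19 (adjusted p = 0.593), while dpy-7 was at -0.35 ± 0.20 (adjusted p = 0.56) with overlap.

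Other antimicrobial families, the abf, spp and thn genes, had 27 of 41 members measured, with a median log2 difference of -0.12 and 9 above 0. None passed the threshold by limma (0 of 27, with 3 at an unadjusted p under 0.05). Without overlap 2 were higher and 2 lower, beside 6.16% and 9.37% of all features. The saposin-like gene spp-20 was 2.63-fold higher (adjusted p = 0.212) and spp-16 1.31-fold higher (adjusted p = 0.478). Lower without overlap were spp-4, at -0.84 ± 0.35 (adjusted p = 0.482), and spp-19, at -0.15 ± 0.15 (adjusted p = 0.664), which was named after its values were seen. With overlap, thn-4 was at -0.48 ± 0.23 (adjusted p = 0.522).

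**Figure D4:**
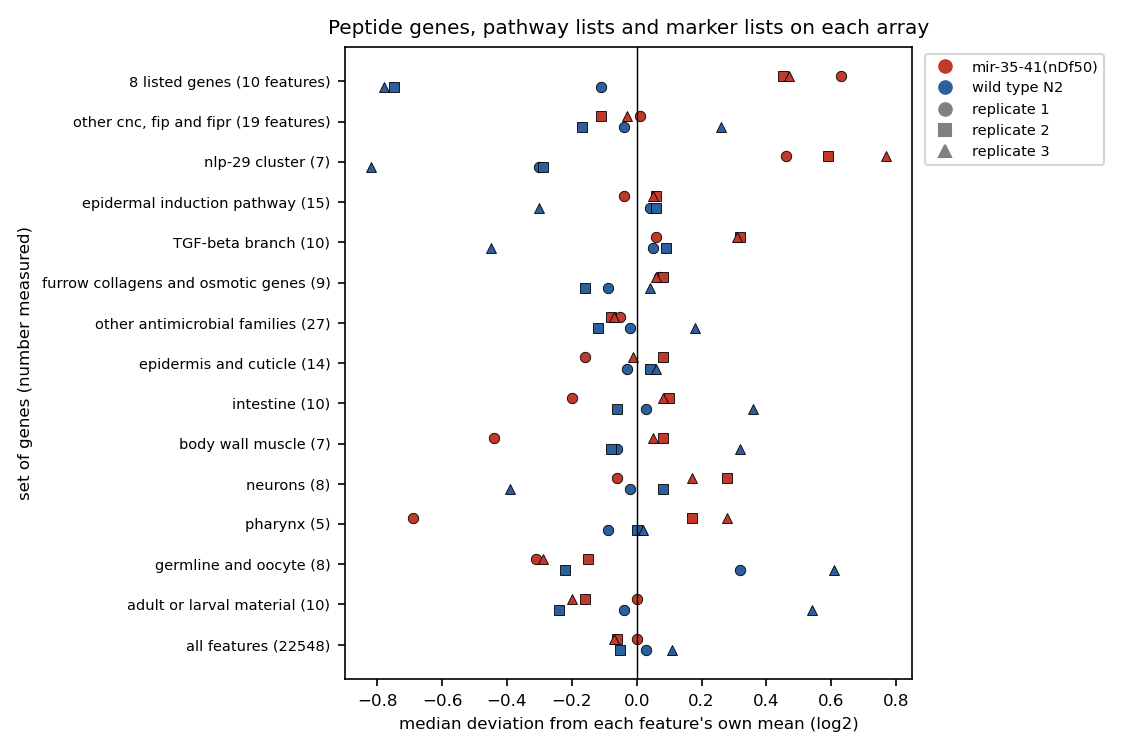
Median deviation of each gene set from its features' own log2 means (horizontal axis) on each of the 6 arrays, mutant in red above wild type in blue, with symbols for replicates and the number of measured genes or features in brackets. The groups part for the 8 listed genes (0.45 to 0.63 in the mutant, against -0.78 to -0.11 in wild type) and for the nlp-29 group, and overlap or nearly touch for the other sets.

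Tissue markers were read beside these values. As background for their counts, 6.16% of all features were higher and 9.37% lower without overlap. The epidermal and cuticle list, the tissue best known for these peptides, had 14 of 16 genes measured, a median log2 difference of -0.02, 1 gene higher without overlap and 0 genes past the threshold by limma (1 at an unadjusted p under 0.05). Its summed intensity was 36560 to 38902 on mutant arrays and 37743 to 52548 on wild type arrays. Intestinal markers (10 of 10 measured) had a median of -0.11, with 1 lower without overlap, and summed to 9524 to 13869 in the mutant and 10749 to 16398 in wild type.

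Germline and oocyte markers had the lowest median of the marker lists, -0.45. All 8 were measured, with 1 higher and 2 lower without overlap and 0 past the threshold by limma (3 at an unadjusted p under 0.05). They summed to 5522 to 6027 in the mutant and 5505 to 10167 in wild type, and their median deviation was 0.32, -0.22 and 0.61 on wild type replicates 1, 2 and 3, against -0.31, -0.15 and -0.29 on mutant replicates 1, 2 and 3. On these markers the value of wild type replicate 2 lay within the range of the mutant arrays. Markers of adult or larval material (10 of 10 measured) summed to 693 to 801 in the mutant and 566 to 853 in wild type, with a median of -0.21. By limma 0 of them passed the threshold (2 at an unadjusted p under 0.05), and 2 were higher without overlap. These were lys-4, a lysozyme gene, at 133, 139 and 156 in the mutant, against 68.6, 53.9 and 50.8 in wild type (2.48-fold, adjusted p = 0.0573), and the sperm protein gene msp-3 (1.45-fold, adjusted p = 0.457).

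Body wall muscle, neuronal and pharyngeal markers had medians of -0.08 (7 of 8 measured), 0.39 (8 of 8) and 0.10 (5 of 6), with 0 past the threshold by limma (1, 1 and 0 at an unadjusted p under 0.05). Without overlap, 2 neuronal markers were higher and 1 was lower, and 1 muscle and 1 pharyngeal marker were lower. Neuronal markers summed to 6769 to 7538 in the mutant and 6558 to 6978 in wild type. Muscle markers summed to 14483 to 19419 in the mutant and 16346 to 23258 in wild type, and pharyngeal markers to 1489 to 2805 in the mutant and 2233 to 2609 in wild type. The lowest intensity of any feature was 7.4, so a value above 0 does not show that a marker was detected. Some markers were near this floor, such as vit-2 at 10.2 to 14.2 over the 6 arrays. The part of stage and tissue makeup in the peptide differences was not tested.

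Genes with a profile most like that of the 8 were sought among 3366 features that name 1 other gene and vary with an SD of at least 0.5 in log2 intensity. The measure was Pearson's r over the 6 arrays with the mean profile of the 8 genes, given as a description, since it mostly follows the gap between the groups on which the 8 were chosen. Over all features searched 181 (5.38%) had r above 0.9. The 8 highest, with r between 0.996 and 1.000, were C25E10.8, a gene the table calls alpha-B-crystallin, hpo-26, W03F8.6, lon-1, the astacin protease gene nas-11, C53B7.3 and T04F8.8.

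The closest, C25E10.8, lies on chromosome V, 7 places from fip-2 in the order of protein-coding genes. It read 311, 300 and 291 in the mutant, against 106, 48 and 58.8 in wild type, 4.5-fold higher (limma adjusted p = 0.0516). The alpha-B-crystallin feature read 535, 517 and 503 in the mutant, against 339, 243 and 266 in wild type, 1.85-fold higher (adjusted p = 0.168). In each of these wild type replicate 1 was the highest wild type array and wild type replicate 2 the lowest, as on cnc-4 and cnc-8.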

How the data were processed

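The authors deposited a table of normalized intensity per probe set on a linear scale, per the file headers, and the series value table holds the same values as log2, which differ from log2 of the deposited linear table by at most 5.63e-06. Affymetrix Expression Console is named per the submitters' processing notes, while its version and the methods behind the values are not given in the labels. Columns were matched to arrays by the names in the sample descriptions. Of 22625 features, 77 controls were left out, and no filter on low values was applied. Names were updated through RefSeq genes of assembly WBcel235, used for names, chromosomes and gene order only. Log2 intensity with no added constant was fitted by lmFit and eBayes of limma 3.58.1 (R 4.3.3) as mutant minus wild type, two-sided and with no block. P-values were adjusted by Benjamini-Hochberg across the 22548 features, with a threshold of 0.05. SE is that of the moderated fit. The fit was tested on simulated data. At 3 arrays per group, the number of arrays limits the precision.

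The 8 genes and all lists were chosen with earlier results of these data known. The rule named every feature of the 8 genes, the 3 highest and 3 lowest other family features, up to 4 genes of smallest p in each pathway list (of the nlp-29 group, nlp-29, nlp-30, nlp-27 and nlp-31) and the 8 most similar genes. Where a list gene has several features of its own, the one with the highest mean was used. Alternatives covered each array left out, the replicate number as a block, the series value table, quantile normalization, median centring, removal of dim features, 16 added before log2, a trend with a robust prior, array weights, mutant replicates 2 and 3 averaged and a 2-fold minimum.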

Additional observations from a re-analysis of the deposited data

How the results depend on the processing

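All 10 features of the 8 genes stayed higher in the mutant in every setting that tested them. With dim features removed 7 of the 10 and 9 of the 29 family features remained. The non-overlap of the groups fixes the direction when an array is left out, when arrays are weighted or averaged, and when 16 is added. The block, the series value table, the trend with a robust prior and the removal of dim features leave each tested difference as it was. None of these is a sign of stability. Only quantile normalization and median centring could have changed the direction, and the lowest of the 10 differences was 0.54 and 0.57 there. Leaving out each array in turn gave log2 differences of 2.03 to 2.89 for cnc-4 and 2.15 to 2.39 for fipr-2. The 29 features past the threshold over all features became 0 to 1289, and the 1 family feature became 0 to 2. By limma the count over all features was 0 without mutant replicate 1, 2 or 3 (2203, 1151 and 1008 at an unadjusted p under 0.05), 47 and 1289 without wild type replicates 1 and 2, and 1 without wild type replicate 3. With mutant replicates 2 and 3 averaged, 0 features and 0 family features passed (1059 and 11 at an unadjusted p under 0.05). With quantile normalization again 3 features passed, with 16 added before log2 8 passed, and each kept fipr-2. In both settings, and with mutant replicates 2 and 3 averaged, nlp-29 (adjusted p = 0.0571, 0.0769 and 0.248), nlp-30 (0.0856, 0.0716 and 0.284) and lon-1 (0.0571, 0.0714 and 0.182) were not past the threshold. Centring on the array median gave 50 features and 2 of the family, and put the median of all features at -0.22, against -0.10 as reported. The trend and robust prior gave 46 and 2. Removing dim features gave 2 family features, with a family median of 0.91, from which nothing is read, since 7 of the 9 features left were chosen for being higher. The family feature gained in these 3 settings, and without wild type replicate 1 or 2, was cnc-4. Array weights, whose estimate stopped before it converged, gave 13639 features and 18 of the family, and moved 7 of the 10 differences by more than 1 SD. Among these fipr-26 was at 0.52, the fipr-22 and fipr-23 pair at 0.28 and 0.19, cnc-8 at 0.63 and cnc-4 at 1.74, so that 2 of the 10 were still at least 2-fold. The cause of these changes was not tested. The replicate block gave 19 features and kept fipr-2 and lon-1, with nlp-29 and nlp-30 at 0.0649 and 0.0929. Same-numbered arrays deviated from their group means with correlations of -0.0316, 0.0723 and -0.176, against -0.221 to 0.298 for arrays of different number. These values show no pairing by number, but with 3 arrays per group they cannot exclude one.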
